A study of Homo sapiens with 3 samples.

Results

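Integrins are the cell surface receptors that hold a cell to the matrix around it, and 10 of their subunit genes were followed in a human liver cancer line: ITGA1, ITGA2, ITGA3, ITGA5, ITGA6, ITGAV, ITGB1, ITGB3, ITGB4 and ITGB5. They were chosen by name, as the entries of the deposited gene tables whose gene name, or 1 of several merged names, equalled 1 of these symbols. All 10 were found in each of the 3 tables, among 55830 gene names in control, 55866 in shDIS3L2 and 55865 in shHNRNPU. RNA came from PLC cells, an established hepatocellular carcinoma line, taken 48 hours after infection with virus carrying short hairpin RNAs. The groups were a non-targeting hairpin (control), hairpins against DIS3L2 (shDIS3L2), an exoribonuclease that degrades uridylated RNA, and hairpins against HNRNPU (shHNRNPU), the gene of the nuclear RNA-binding protein hnRNP U. Each group was 1 library of the same line, all 3 had received a hairpin virus, and the number of hairpins per target, and any pooling of them, are not stated in the labels. The study's question was how DIS3L2 acts in liver cancer through splicing that depends on hnRNP U, and the gene-level values used here do not resolve isoforms.

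An integrin is a pair of 1 alpha and 1 beta chain, and the pair decides the ligand. ITGB1 pairs with many alpha chains: with ITGA1 or ITGA2 it binds collagen, with ITGA3 or ITGA6 laminin, and with ITGA5 fibronectin. ITGAV pairs with ITGB3 or ITGB5 in receptors of vitronectin and other proteins with an RGD sequence, and ITGA6 with ITGB4 in the laminin receptor of hemidesmosomes. Ligands engage the pair outside the cell, talins and kindlins switch it on from inside, and vinculin, filamins and zyxin tie it to actin.

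Values are FPKM (sequenced fragments divided by transcript length and by the library's mapped fragments), so levels of different genes can be compared within a library. Ranges in parentheses are the authors' intervals for an estimate. They describe the precision inside 1 library and leave out differences between cultures. A gene rose or fell, in what follows, only where it passed a size rule. The rule asks for a log2 ratio, computed after adding 1 to each FPKM, of 1 or more (or -1 or less), and for intervals that do not overlap. With 1 library per group there was no replicate check and no p-value, and in a bulk sample fewer cells of a type cannot be told apart from less RNA per cell. From the interval widths of low single-exon genes, depth was estimated at about 22700000, 18100000 and 20000000 fragments in control, shDIS3L2 and shHNRNPU. DIS3L2 stood at 7.61, 3.23 and 11.2 FPKM in these libraries and HNRNPU at 178, 232 and 33.5, so that each was lowest in the library labelled for it. Of 9 liver markers, all were at 1 FPKM or more in control and in shHNRNPU and 8 in shDIS3L2, and their summed level was 17399.5, 6789 and 11850.5 FPKM in control, shDIS3L2 and shHNRNPU. The summed level of 5 fibroblast markers was at most 1.28 FPKM and that of 3 endothelial markers at most 0.0423, with COL1A2 and LUM at 0 in control. Of 6 leukocyte markers, LYZ, the lysozyme gene, stood at 181, 33.5 and 70.8 FPKM while CD3E was at 0 throughout and PTPRC in control and shDIS3L2. Among the liver markers 1 rose and 3 fell in shDIS3L2, and 3 fell in shHNRNPU. Over all genes tested, 8.95% rose and 7.57% fell in shDIS3L2, and 8.32% and 7.46% in shHNRNPU. The part of the liver markers in the results on integrins was not tested.

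The promoters of ITGA5, ITGA2 and ITGA1 are shown because these members passed the size rule against control in at least 1 knockdown and have a single start site in the RefSeq promoter table (GRCh38.p14, whose coordinates differ from those of the deposited tables). Each line gives 250 bases before the start and 10 bases after it, 5′ to 3′ on the strand of the gene. Capitals mark matches on either strand to a GC box (GGGCGG), the AP-1 motif (TGANTCA) or the TEAD motif (GGAATG). No match overlaps another in these sequences. ITGA5 is from chr12:54419257-54419516 (minus strand), ITGA2 from chr5:52989102-52989361 and ITGA1 from chr5:52787666-52787925 (both plus strand).
ITGA5: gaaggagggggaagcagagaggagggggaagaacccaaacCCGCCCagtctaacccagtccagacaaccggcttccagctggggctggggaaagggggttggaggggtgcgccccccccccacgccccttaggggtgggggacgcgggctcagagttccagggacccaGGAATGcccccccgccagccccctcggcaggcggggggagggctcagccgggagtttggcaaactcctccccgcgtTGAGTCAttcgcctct
ITGA2: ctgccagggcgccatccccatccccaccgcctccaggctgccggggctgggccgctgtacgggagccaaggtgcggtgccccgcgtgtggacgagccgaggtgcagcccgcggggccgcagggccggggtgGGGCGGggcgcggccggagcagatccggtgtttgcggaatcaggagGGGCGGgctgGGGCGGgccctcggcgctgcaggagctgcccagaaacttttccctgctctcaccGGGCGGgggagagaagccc
ITGA1: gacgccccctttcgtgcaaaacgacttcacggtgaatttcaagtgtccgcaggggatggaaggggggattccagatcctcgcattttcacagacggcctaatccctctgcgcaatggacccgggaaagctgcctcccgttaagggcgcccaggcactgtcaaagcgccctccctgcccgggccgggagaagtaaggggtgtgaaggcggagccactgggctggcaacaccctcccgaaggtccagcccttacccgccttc

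In the ITGA5 window a TGANTCA match begins 6 bases before the start site and runs into the first transcribed base, a GGAATG match begins 82 bases before it and a GC box 210 bases before it. The ITGA2 window has 4 GC boxes, beginning 119, 73, 63 and 9 bases before the start, and neither an AP-1 nor a TEAD match. The CCAAT box and the TATA box (TATAAA) were searched as well and matched in none of the windows shown. In the ITGA1 window none of the 5 motifs matched. Among 35116 RefSeq promoters of this length, 43.1% had a GC box, 6.92% the AP-1 match, 12.5% the TEAD match, 32.7% the CCAAT box and 10.9% the TATA box. A match describes letters in the window and is no evidence of binding. GC content was 69.2%, 75.8% and 62.3% in the windows of ITGA5, ITGA2 and ITGA1, against a median of 58.1% over all promoters. ITGA6, ITGAV, ITGB1 and ITGB5 have more than 1 start in the table, and ITGA3, ITGB3 and ITGB4 were not matched.

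In shDIS3L2, ITGA2, ITGA6, ITGAV and ITGB5 rose, 4 of the 9 members with a mean of at least 1 FPKM, and none fell. Over all 11790 genes tested, 8.95% rose and 7.57% fell in this comparison, 16.5% in either direction. In shHNRNPU, ITGA5 fell and the locus that holds ITGA1 rose, 1 member in each direction, where 8.32% of all genes rose and 7.46% fell, 15.8% together. These shares include genes listed at 0 in a library, while no tested member was. Without such genes, 826 of 1055 rises and 636 of 893 falls remained in shDIS3L2. In shHNRNPU 770 of 981 rises and 616 of 879 falls remained. With a pseudocount of 5 in place of 1, the calls of ITGA2, ITGA6 and ITGAV in shDIS3L2 ended. With one of 0.1, ITGA2 passed in shHNRNPU as well. Going by the intervals alone, 7 members lay above control in shDIS3L2 and none below, beside 32.7% and 25.3% of all genes. In shHNRNPU 4 lay above and 2 below, beside 34.9% and 23.5%. The median log2 ratio of the 9 members was 0.84 in shDIS3L2 and 0.45 in shHNRNPU, beside 0.09 and 0.12 over all genes tested. Both comparisons share the control library, so a deviation of that library enters both. ITGB3 stayed below the minimum of 1 FPKM and entered no count.

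**Figure D1:**
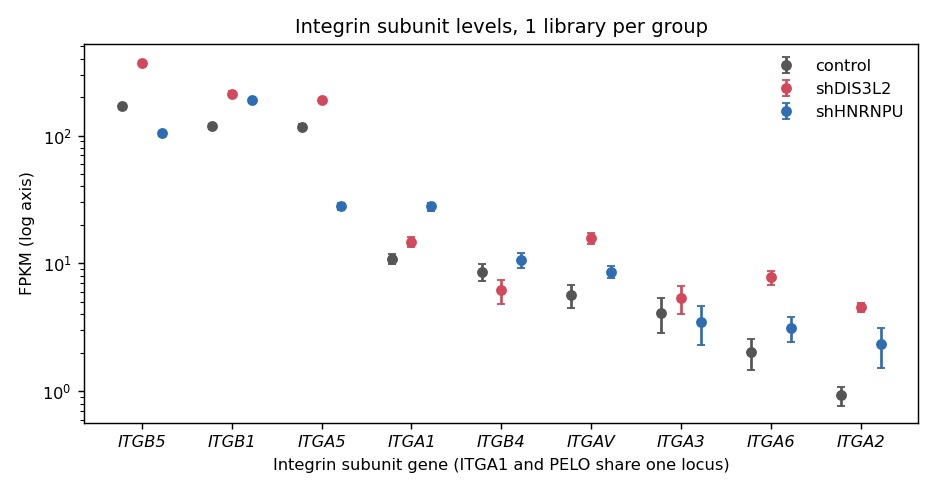
FPKM on a log axis of 9 integrin subunit genes in the control, shDIS3L2 and shHNRNPU libraries (1 library each; bars are the deposited intervals), ordered by the control level; ITGB3, near 0, is left out. ITGB5, ITGB1 and ITGA5 stand above 100 FPKM in control, and ITGA5 drops to 28.0 in shHNRNPU, next to the ITGA1 locus at 27.9.

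ITGA5 encodes the alpha chain of the main fibronectin receptor. The control library had 118 FPKM of it (113 to 122), the shDIS3L2 library 189 (182 to 197) and the shHNRNPU library 28.0 (26.1 to 29.9). The intervals of the libraries were all apart, with shDIS3L2 highest and shHNRNPU lowest. The log2 ratio against control was -2.03 in shHNRNPU, a level 0.239 times that of control, and 0.68 in shDIS3L2, below the size rule. Between the knockdowns, shHNRNPU stood lower by a log2 ratio of -2.71, the largest difference of any member. The gene lies on the minus strand of chromosome 12, 54789045 to 54813244 (hg19). Its lower bound, on the side away from the start site, differed slightly in shHNRNPU (54789007). The upper bound, on the side of the start, was the same in all libraries.

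ITGB1, the common partner chain, did not follow ITGA5. Its level was 118 FPKM (113 to 123) in the control library, 212 (204 to 221) after the DIS3L2 hairpins and 189 (181 to 198) after those against HNRNPU. Both knockdowns lay above control with intervals apart, at log2 ratios of 0.84 and 0.67 that did not reach the size rule. Within a library, where scaling between libraries plays no part, ITGA5 stood at 0.994 times ITGB1 in control (0.915 to 1.08 from the interval bounds), 0.892 times in shDIS3L2 (0.822 to 0.967) and 0.148 times in shHNRNPU (0.132 to 0.166). The shHNRNPU ratio was therefore apart from both others, while those of control and shDIS3L2 overlapped. ITGB1 (chromosome 10, 33189247 to 33294720) has a processed pseudogene, ITGB1P1, listed at 3.28, 3.46 and 4.42 FPKM in control, shDIS3L2 and shHNRNPU, with which it can share reads.

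ITGB5, the beta chain that joins ITGAV in a vitronectin receptor, was the most abundant member in control. In control it reached 169 FPKM (164 to 175), while shDIS3L2 showed 370.3 (359 to 381) and shHNRNPU 104 (99.9 to 108). The intervals were all apart, with shDIS3L2 above control and shHNRNPU below it. It rose in shDIS3L2 (log2 ratio 1.12), and its ratio in shHNRNPU, -0.70, did not reach the size rule. It was lower in shHNRNPU than in shDIS3L2 by the size rule, with a log2 ratio of -1.82. ITGB5 stood at 1.43 times ITGB1 in control and 1.74 times in shDIS3L2, but at 0.549 times in shHNRNPU (0.505 to 0.597), where ITGB1 was the more abundant beta chain. The gene is on chromosome 3, 124480795 to 124620265.

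ITGAV, the alpha chain of receptors for RGD proteins, was far less abundant than ITGB5, which is not its only beta partner. The control value was 5.64 FPKM (4.51 to 6.76), against 15.9 (14.3 to 17.4) for shDIS3L2 and 8.56 (7.64 to 9.49) for shHNRNPU. All 3 intervals were apart, with control lowest. ITGAV rose in shDIS3L2 (log2 ratio 1.35) and had a ratio of 0.53 in shHNRNPU. Relative to ITGB5 it stood at 0.0333, 0.0429 and 0.0824 times in control, shDIS3L2 and shHNRNPU, and the interval of the last (0.0708 to 0.0950) lay above the other 2. ITGA5 stood at 20.9 times ITGAV in control, 11.9 times in shDIS3L2 and 3.27 times in shHNRNPU. ITGAV lies on chromosome 2, 187454792 to 187545628.

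ITGB3, another of the beta partners of ITGAV, was near 0. The tables list it at 0.0854 FPKM (0 to 0.675) for control, at 0 for shDIS3L2 and at 0.211 (0 to 0.992) for shHNRNPU, under 1 locus with EFCAB13 on chromosome 17 (45331212 to 45518678). The intervals of control and shHNRNPU overlapped, and no fold is given at such levels.

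**Figure D2:**
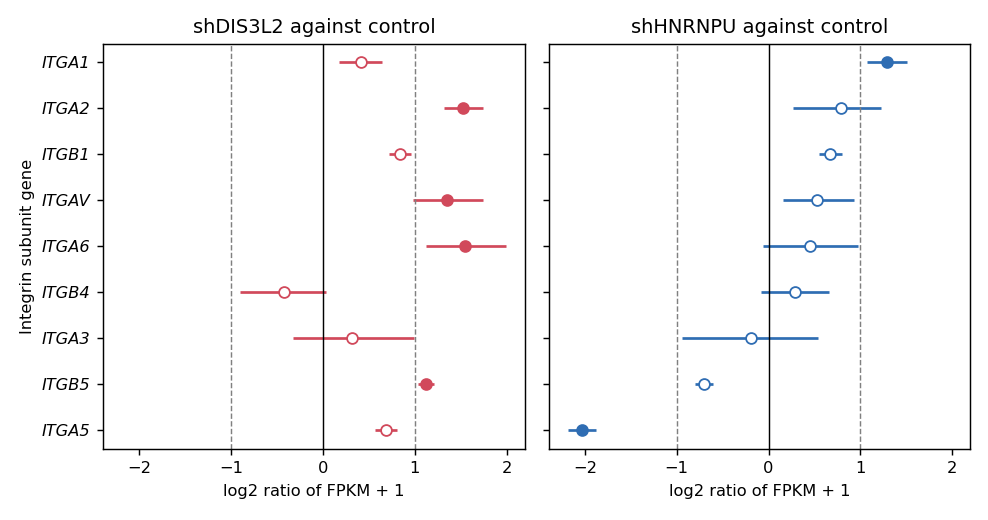
Log2 ratio of FPKM + 1 against control for 9 integrin subunit genes in shDIS3L2 (left) and shHNRNPU (right), 1 library each; lines span the ratios that the deposited interval bounds allow, filled points passed the size rule and dashed lines mark 1 and -1. In shDIS3L2 only ITGB4 lies below 0 (-0.42), and in shHNRNPU ITGA5 (-2.03), ITGB5 (-0.70) and ITGA3 (-0.19) do. The median over all genes tested was 0.09 in shDIS3L2 and 0.12 in shHNRNPU.

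The collagen-binding chains ITGA1 and ITGA2 are neighbours on chromosome 5, 30.1 kb apart in the control table. ITGA2 (52285156 to 52390609) was barely expressed in control at 0.927 FPKM (0.773 to 1.08), with 4.56 (4.17 to 4.94) for shDIS3L2 and 2.32 (1.51 to 3.13) for shHNRNPU. The 3 intervals were apart, with control lowest and shDIS3L2 highest. It rose in shDIS3L2 with a log2 ratio of 1.53, a level 4.92 times that of control. In shHNRNPU the ratio was 0.79, which the pseudocount of 1 holds down at such low levels, since the level was 2.50 times that of control. Its assembled end differed in shHNRNPU (52391435).

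The ITGA1 entry joins ITGA1 with PELO, a ribosome rescue factor gene nested in it, and a noncoding gene, so its value cannot be assigned to ITGA1 alone. The joint locus (52083730 to 52255040) had 10.8 FPKM (9.85 to 11.8) in the control library, against 14.7 (13.5 to 16.0) for shDIS3L2 and 27.9 (25.8 to 29.9) for shHNRNPU. Intervals were apart throughout, with shHNRNPU highest, the opposite order of the knockdowns to that in ITGA2. The locus rose in shHNRNPU (log2 ratio 1.29) and had a ratio of 0.41 in shDIS3L2.

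Among the laminin-binding chains, ITGA6 rose in shDIS3L2 while ITGA3 and ITGB4 passed neither way in any comparison. ITGA6 (chromosome 2, 173292082 to 173371181) had a control level of 2.02 FPKM (1.46 to 2.58), next to 7.79 (6.81 to 8.77) for shDIS3L2 and 3.13 (2.44 to 3.82) for shHNRNPU. Only shDIS3L2 was apart from both other libraries. The log2 ratio was 1.54 in shDIS3L2 and 0.45 in shHNRNPU, and ITGA6 was lower in shHNRNPU than in shDIS3L2 (-1.09), a call that ended with a pseudocount of 5 (-0.65).

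ITGA3 (chromosome 17, 48133332 to 48167845) stood at 4.10 FPKM (2.87 to 5.33), 5.36 (4.05 to 6.67) and 3.47 (2.30 to 4.64) in control, shDIS3L2 and shHNRNPU. Its 3 intervals overlapped, so no difference was detectable at this precision. ITGB4, the hemidesmosome chain (also chromosome 17, 73717408 to 73753899), stood at 8.57 FPKM (7.31 to 9.83), 6.14 (4.81 to 7.48) and 10.7 (9.20 to 12.1) in the same order. The knockdowns were apart from each other but neither from control, and ITGB4 was the only one of the 9 members with a negative ratio in shDIS3L2 (-0.42). Its locus overlaps GALK1, which stood at 93.1, 33.0 and 82.5 FPKM and fell in shDIS3L2 (log2 ratio -1.47). The labels do not call the library stranded, and the part of GALK1 reads in the ITGB4 value was not tested. With ITGA6 up and ITGB4 at a lower value, ITGB4 stood at 4.25 times ITGA6 in control, 0.789 times in shDIS3L2 (0.548 to 1.10) and 3.41 times in shHNRNPU (2.41 to 4.96). The interval of shDIS3L2 was apart from both others.

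The order of the levels within each library shows these shifts. In control it ran ITGB5, ITGB1, ITGA5, ITGA1, ITGB4, ITGAV, ITGA3, ITGA6, ITGA2 and ITGB3, and the neighbours whose intervals overlapped were ITGB1 with ITGA5 and ITGAV with ITGA3. In shDIS3L2 the first 3 kept their places and were apart, followed by ITGAV and ITGA1, which overlapped, and then ITGA6, ITGB4, ITGA3 and ITGA2, each overlapping the next of these 4. In shHNRNPU ITGB1 came first and ITGB5 second, and ITGA5 and the ITGA1 locus, next in order, overlapped. ITGB4 overlapped ITGAV, ITGA3 overlapped ITGA6, and ITGA6 overlapped ITGA2. ITGB5 ranked 830 among all named loci in control, 395 in shDIS3L2 and 1342 in shHNRNPU, while ITGA5 ranked 1153, 751 and 3587.

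Summed over the 6 alpha genes, the level was 141 FPKM in control, 238 in shDIS3L2 and 73.4 in shHNRNPU. The sum over the 4 beta genes was 296, 589 and 304. ITGA5 held 83.3% of the alpha sum in control and 79.7% in shDIS3L2, but 38.2% in shHNRNPU, where the ITGA1 locus held 38.0%. Without that locus, ITGA5 held 90.3%, 84.9% and 61.6%, and ITGAV 4.33%, 7.12% and 18.8%. Of the beta sum, ITGB5 held 57.2%, 62.9% and 34.2%, and ITGB1 39.9%, 36.1% and 62.3%. The sums cover the members only. ITGAE, an alpha gene outside them, stood at 89.7, 113 and 93.6 FPKM in control, shDIS3L2 and shHNRNPU. These are shares of RNA and say nothing of pairs on the cell surface.

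**Figure D3:**
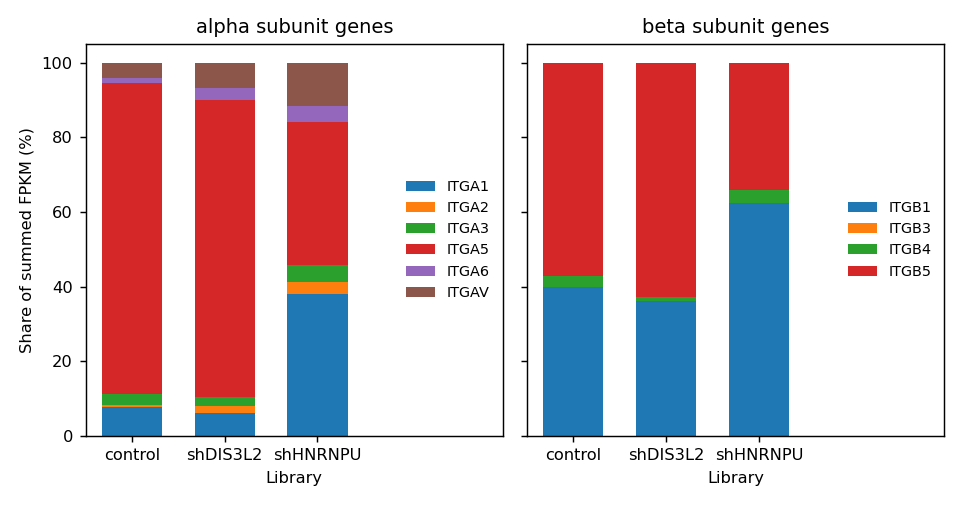
Share (%) of each gene in the summed FPKM of 6 alpha subunit genes (left) and 4 beta subunit genes (right) in control, shDIS3L2 and shHNRNPU, 1 library each; ITGA1 stands for the locus it shares with PELO. ITGA5 takes 83.3% of the alpha column in control and 38.2% in shHNRNPU, and ITGB5 57.2% and 34.2% of the beta column.

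The remaining 16 integrin genes of the human family were weakly expressed with 1 exception. ITGAE, a chain best known from lymphocytes that bind E-cadherin, was at 89.7 FPKM (83.1 to 96.2) in control, with 113 (105 to 122) for shDIS3L2 and 93.6 (86.0 to 101) for shHNRNPU, and passed neither way. Its locus overlaps GSG2, from which reads without strand cannot be told apart. Of the 6 with a mean of at least 1 FPKM, ITGAD (merged with a noncoding gene) and ITGB2 rose and ITGAL fell in shDIS3L2, and ITGB2 rose in shHNRNPU. ITGB2, the leukocyte beta chain, was listed at 0 in control and at 1.77 and 2.80 FPKM in shDIS3L2 and shHNRNPU, so its call rests on a value of 0. ITGAL, its alpha partner, was at 2.49, 0.580 and 1.92 FPKM, and ITGAD at 1.13, 3.84 and 1.62. ITGA2B, the platelet chain, stood at 0.670, 2.76 and 1.48 FPKM and ITGA11 at 2.22, 2.76 and 2.04, with overlapping intervals for both against control.

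Genes that act with integrins were read from lists by role. Each count below stands beside the shares over all genes tested, 8.95% risen and 7.57% fallen in shDIS3L2, 8.32% and 7.46% in shHNRNPU. Whether a list differs from these shares was not tested. Of 34 ligand genes of the matrix, 19 had a mean of at least 1 FPKM, and 5 of them rose and 2 fell in shDIS3L2 (median log2 ratio 0.09). LAMB3, a chain of the laminin that ITGA6 with ITGB4 and ITGA3 with ITGB1 bind, rose from 6.17 FPKM (4.75 to 7.59) to 43.9 (40.6 to 47.2) and stood at 6.43 (4.91 to 7.94) in shHNRNPU. FGB, the fibrinogen beta chain, rose (log2 ratio 1.39), as did CYR61, a matricellular ligand (1.24). The other fibrinogen chain genes did not reach the size rule and differed in direction, with intervals apart. FGA went from 564 FPKM to 298 (-0.92) and FGG from 19.1 to 37.1 (0.93). VTN, the gene of vitronectin, the ligand of the ITGAV and ITGB5 pair, fell from 798 FPKM (769 to 827) to 310.4 (299 to 322), and its value in shHNRNPU, 689 (0 to 2143), was not resolved. LAMA5, a laminin chain, fell by 1.18 on the log2 scale. VTN, LAMA5 and LAMB3 are loci with several names.

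In shHNRNPU, 1 of the 19 ligand genes rose and 4 fell, with a median of -0.23, where 8.32% of all genes rose and 7.46% fell. CYR61 rose (1.88), while the fibrinogen chain genes FGA (-1.53) and FGB (-1.30) and the laminin chain LAMB2 (-1.25) fell the most. FN1, the fibronectin gene and thus the ligand of ITGA5 with ITGB1, stood at 372 FPKM (361 to 383), 569.7 (553 to 587) and 234 (227 to 240) in control, shDIS3L2 and shHNRNPU. The 3 FN1 intervals were apart in the same order as those of ITGA5 and ITGB5, with log2 ratios of 0.61 and -0.67 that did not reach the size rule, while shHNRNPU was lower than shDIS3L2 (-1.28). FN1 was named for this after its values were seen. In the same list FGB, FGG, LAMB1 and LAMC1 had this order with intervals apart as well, and its share over all genes was not counted.

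Of 22 tested adaptors that link integrins to actin or switch them on, 8 rose and 1 fell in shDIS3L2, with a median of 0.73. Over all genes 8.95% rose and 7.57% fell there. FLNA, the actin crosslinker filamin A, rose from 118 FPKM to 984 (log2 ratio 3.06), and ZYX, the gene of zyxin, from 60.5 to 361 (2.56). TLN1, the gene of talin, which binds beta chain tails to activate integrins, fell from 108 FPKM (103 to 113) to 49.6 (47.0 to 52.1), and was at 104 in shHNRNPU. The direction of TLN1 was thus opposite to that of the 8 others. Among those was FERMT2, a kindlin gene, which rose from 9.49 FPKM to 28.3 (1.48) and was at 11.0 in shHNRNPU. In shHNRNPU, ZYX (1.20) and ACTN4, an alpha-actinin gene (1.15, but 0.998 after median-of-ratios rescaling), rose, and the median was -0.02. PXN, the gene of paxillin, was listed at 0 in shHNRNPU against 26.7 FPKM in control, which can be a failed estimate. Without genes listed at 0 no adaptor fell there.

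**Figure D4:**
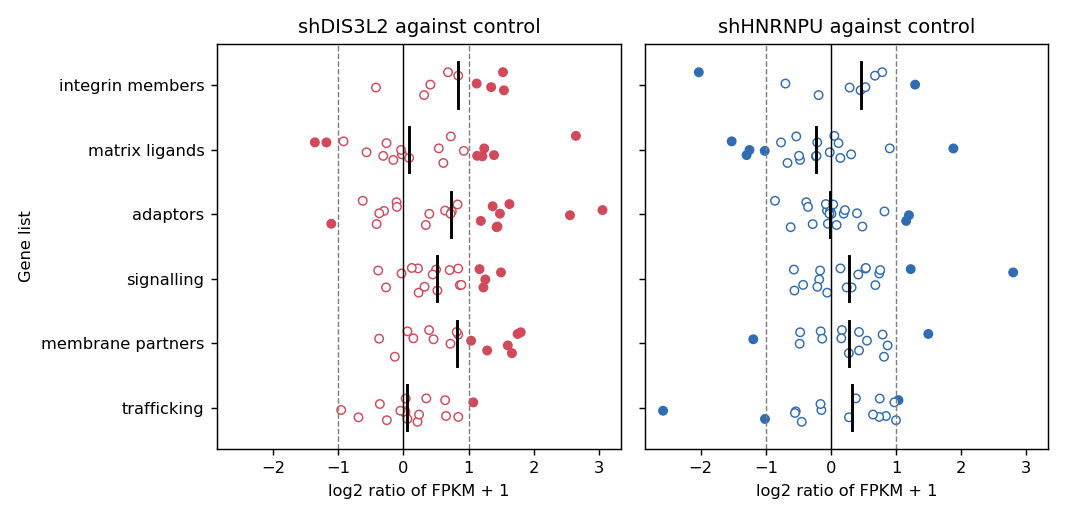
Log2 ratio of FPKM + 1 against control in shDIS3L2 (left) and shHNRNPU (right), 1 library each, for the integrin members and 5 lists of genes that act with them; each point is a gene with a mean of at least 1 FPKM and above 0 in all libraries, filled where it passed the size rule, and vertical bars are medians. The bar of the members stands at 0.84 and 0.45, that of the adaptors at 0.72 and -0.01.

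Of 19 tested signalling genes, 4 rose in shDIS3L2 and 3 in shHNRNPU and none fell, with medians of 0.50 and 0.32. Over all genes 8.95% rose in shDIS3L2 and 8.32% in shHNRNPU, and 7.57% and 7.46% fell. ROCK1 and ROCK2, kinases that contract actomyosin, rose in both, ROCK1 from 2.10 FPKM to 7.74 and 20.5 and ROCK2 from 2.85 to 7.65 and 7.99. PTPN12, a phosphatase of focal adhesion proteins, rose in shDIS3L2 (1.26). The other call in shHNRNPU was PTPN11, which was listed at 0 in both other libraries. PTK2, the focal adhesion kinase gene, passed neither way against control at 24.9, 35.7 and 16.5 FPKM, and was lower in shHNRNPU than in shDIS3L2 (log2 ratio -1.07). It too was named after its values were seen.

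Among 16 membrane partners, 6 rose and 1 fell in shDIS3L2, beside 8.95% and 7.57% of all genes. The one that fell, TSPAN4, was listed at 0. CD44, a hyaluronan receptor, rose with a log2 ratio of 1.80, SDC4, the syndecan that binds fibronectin beside integrins, with 1.75 and the tetraspanin CD82 with 1.67. The median was 0.77. In shHNRNPU SDC4 rose (1.49) and CD151, the tetraspanin bound to laminin-binding integrins, fell from 351 FPKM (339 to 364) to 153 (145 to 161), with a median of 0.22. Of the 5 tested hemidesmosome genes, DST (1.86), LAMA3 (1.21) and LAMB3 (2.65) rose in shDIS3L2. LAMA3 and LAMB3 are also in the ligand list and CD151 is also a membrane partner. Short of the size rule there, PLEC lay below control (-0.54) and CD151 above it (0.46), with intervals apart. ITGB4 itself passed neither way. DST, LAMA3, LAMB3 and CD151 were lower in shHNRNPU than in shDIS3L2, where 10.5% of all genes were lower.

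Of 17 tested trafficking and folding genes, CLTC, the clathrin heavy chain, rose in shDIS3L2 (1.07), and the 1 that fell, GGA3, was listed at 0. These counts lay near the shares over all genes, 8.95% and 7.57%. In shHNRNPU RAB21, a small GTPase that carries integrins through endosomes, rose (1.04), as did GGA3 (1.22). HAX1 (-2.58) and the chaperone gene CANX (-1.01), whose locus in control carries another name as well, fell. After median-of-ratios rescaling CLTC (0.97) and RAB21 (0.89) no longer reached the size rule. The medians were 0.03 and 0.38. Of 4 tested inhibitors, KRIT1, whose locus carries another name as well, rose in shHNRNPU (1.14), and SHARPIN was listed at 0 in both knockdowns. ITGB1BP1, whose product binds the ITGB1 tail, was at 83.1, 77.2 and 75.6 FPKM.

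Between the knockdowns, 3 of the 9 members were lower in shHNRNPU than in shDIS3L2, ITGA5 (-2.71), ITGB5 (-1.82) and ITGA6 (-1.09), and none was higher. Over all genes 10.5% were lower and 10.2% higher, 20.7% together. The intervals of ITGA2 (-0.74), ITGAV (-0.82) and ITGB1 (-0.17) were below as well, and those of ITGA1 (0.88) and ITGB4 (0.71) above, without reaching the size rule. That made 2 members above and 6 below by intervals alone, beside 31.8% and 28.4% of all genes. The median of the 9 was -0.74, beside 0.03 over all genes tested.

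Genes whose pair of log2 ratios against control lay closest to those of a member were sought among 5632 protein-coding genes above 5 FPKM on average, over these 3 libraries. Nearest to ITGA5 were KIAA0319L (0.56 and -1.98), ZCCHC10 (0.65 and -1.87) and RRBP1 (0.87 and -1.84). Nearest to ITGA6 were SAT1 (1.50 and 0.47), CYP24A1 (1.55 and 0.40) and TPM2 (1.63 and 0.39). Nearest to ITGA2 were TAF2 (1.54 and 0.75), NDRG1 (1.54 and 0.83) and TLK2 (1.57 and 0.83). The nearest gene was 0.129 away from ITGA5, 0.0436 from ITGA6 and 0.0331 from ITGA2 on the log2 scale. ITGA2 and ITGA6 themselves averaged 2.60 and 4.31 FPKM, below the candidates. The pseudocount holds down their ratios more, so these distances depend on it. Likeness over 2 ratios that share a control is a description of these libraries.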

How the data were processed

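RNA of 3 libraries, 1 per group, was measured. Libraries were made with a NEBNext Ultra RNA kit after TRIZOL extraction, per the labels' protocols. The tools were TopHat2 2.0.12 and Cufflinks 2.2.1 with the build hg19, per the submitters' processing notes. Per the file headers, the deposited tables give FPKM for each gene, its interval bounds and a quantification status. The level of the bounds is not in the headers and was taken as 95%. Entries assembled in each library separately carry an assembly number in place of a gene identifier, and no annotation release is named.

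The control table had 0 mitochondrial loci, against 11 and 10 in shDIS3L2 and shHNRNPU, and whether this touches the scaling was not tested. Genes were matched by name, taking the highest locus, and names that share 1 locus in all libraries were counted once. Of 52680 loci, 11790 had a mean FPKM of at least 1. Log2 ratios used a pseudocount of 1 on FPKM as deposited, which understates changes of low genes. The median ratio over 10969 genes above 0 was 0.10 in shDIS3L2 and 0.13 in shHNRNPU, and members' ratios include this shift. Depth was worked out from the interval widths of low single-exon genes, of which 42, 56 and 42 gave whole fragments within 0.02. The size rule was run on data simulated from the control values, with set changes and with error drawn from the deposited intervals. That simulation held no difference between cultures, so it cannot tell how often the rule errs for want of replicates. No p-value was computed.

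The members, lists and named genes were chosen with earlier results of these data known. Named were all members, other integrins with a mean of at least 1 FPKM, up to 3 genes per list, comparison and direction past the size rule and above 0 in both libraries, the targeted genes, genes that overlap a member, and the 3 genes nearest to each of the 3 members with the largest ratio. FN1, FGG, LAMB1, LAMC1, FERMT2, PLEC, PTK2, ITGB1BP1 and the list genes listed at 0 were named after their values were seen. Genes of unsure function could be left out. The values of 1 adaptor gene that the rule would name are not reported here. Alternatives were other pseudocounts, rescaling, filters, thresholds and locus sums. Python 3.11.15, pandas 2.3.3 and NumPy 2.4.6 were used.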

Additional observations from a re-analysis of the deposited data

How the results depend on the processing

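The log2 ratios of the 9 tested members kept their sign under both rescalings (0 sign changes in 27 ratios each). Rescaling, summing loci and lifting the FPKM filter left the counts of members as they were. After median-of-ratios rescaling, though, ITGB5 in shDIS3L2 stood at 1.02, barely past the threshold of 1. With a pseudocount of 5, 1 member rose in shDIS3L2 in place of 4, ITGB5, where 4.7% of all genes rose. ITGAV (0.97), ITGA6 (0.87) and ITGA2 (0.69) no longer reached a log2 ratio of 1. At that pseudocount 2 members in place of 3 were lower in shHNRNPU than in shDIS3L2, without ITGA6 (-0.65), beside 6.15% of all genes. With a mean FPKM of at least 5, 6 members were tested, without ITGA2 and ITGA6 among others. Of these, 2 rose in shDIS3L2 (8.99% of all genes) and 2 were lower between the knockdowns (11.3%). With a pseudocount of 0.1, 2 members rose in shHNRNPU in place of 1, ITGA2 (1.24) being added, where 11.2% of all genes rose. At a threshold of 0.5, 6 rose in shDIS3L2 (21.9% of all genes), 4 rose and 2 fell in shHNRNPU (23% and 15.8% of all genes), and 2 were higher and 5 lower in shHNRNPU than in shDIS3L2 (23% and 20.8%). ITGA2, ITGAV and ITGB1 were then higher than control in both knockdowns, which share that control. With no size threshold, 7 rose in shDIS3L2 (32.7% of all genes), 4 rose and 2 fell in shHNRNPU (34.9% and 23.5%), and 2 were higher and 6 lower between the knockdowns (31.8% and 28.4%). Leaving out loci merged with another protein-coding gene, chosen after the data were seen, left 0 risen members in shHNRNPU, since ITGA1 was the one. No paired analysis was possible because each group has 1 library. Intervals reached 3.07% of the level of ITGB5 in control to either side but 30.0% of that of ITGA3, which limits what could be told for the low chains.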
